A study of Homo sapiens with 6 samples.

Results

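The Wnt/β-catenin pathway was described here through 10 genes, *CTNNB1*, *APC*, *AXIN1*, *BTRC*, *TCF7L2*, *AXIN2*, *NKD1*, *LGR5*, *TBX3* and *GLUL*, which were chosen by name as components of the pathway and its targets in liver. They are 10 of the 21863 gene symbols in the deposited expression table, each stands on 1 line of it, and all 10 had a value above 0 in all 6 libraries. The libraries came from Hep G2, an established human liver cancer line that carries an activated *CTNNB1*. Cells were left non-transfected (NT, labelled 0 h) or received 5 nM of a double-stranded RNA that mimics *miR-195* or *miR-497*, and RNA was taken 24 h later. For each of these 3 conditions RNA was sequenced from the whole cell (total RNA, 3000 ng per library) and from the material brought down with an antibody against Argonaute 2 (Ago2-IP, 10 ng per library), with 1 library per condition and fraction. Hence no replicate spread exists, no test between conditions could be made, and every interval below is a 95% interval for counting error alone. The methods take both fractions of a condition from 1 sample. Since the NT cells were not transfected with a control RNA and NT is labelled 0 h against 24 h for the mimics, effects of a mimic, of the transfection and of time in culture cannot be told apart.

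In the canonical Wnt pathway, a destruction complex built on the scaffolds APC and AXIN1 holds β-catenin, the product of *CTNNB1*, so that it is phosphorylated, and BTRC (β-TrCP), the substrate-binding F-box protein of an SCF ubiquitin ligase, then marks it for degradation. Binding of Wnt ligands to their receptors disables the complex, and β-catenin enters the nucleus and activates genes together with TCF/LEF factors such as TCF7L2. *AXIN2* and *NKD1* are feedback inhibitors that the pathway itself induces. LGR5, the receptor that amplifies the signal through R-spondins, TBX3, a T-box transcription factor, and GLUL, glutamine synthetase of the hepatocytes around the central vein, are products of target genes in liver. In Hep G2 an in-frame deletion in a *CTNNB1* allele removes phosphorylation sites, so that part of the β-catenin escapes the complex, and the values per gene used here do not separate the alleles.

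*miR-195* and *miR-497* are expressed from 1 cluster on chromosome 17 (chr17:7017667-7017687 and chr17:7017979-7017999, minus strand, GRCh38.p14), and the mature sequences, taken from RefSeq, are shown because the mimics share the bases that choose a target site. Capitals mark the seed, bases 2 to 8, which is identical in the 2 miRNAs, and 12 of the 21 positions are identical in all.
hsa-miR-195-5p: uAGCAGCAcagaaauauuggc
hsa-miR-497-5p: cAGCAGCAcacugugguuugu

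The 7 bases that pair with this seed read TGCTGCT on the transcript. They occurred in the canonical 3′UTR of 4 of the 10 genes, and counting the 3′UTR of any protein-coding transcript also gave 4. By this second count 28.4% held them of the 10935 genes that had a value above 0 in all 6 libraries and an annotated 3′UTR (GENCODE 44, GRCh37). The other shares of genes with a 3′UTR site were counted in that way too. *BTRC* was the gene among the 10 whose sites were followed by an A, the 8-base form TGCTGCTA, which 5.79% of those genes hold. Its 3′UTR of 4193 bases holds 2 such sites, at chr10:103313096-103313102 and chr10:103315039-103315045 on the plus strand, or 219 and 2162 bases from the start of the 3′UTR (positions count the stop codon). *AXIN2* holds 2 sites of 7 bases, at chr17:63525675-63525681 and chr17:63525452-63525458 on the minus strand, in a 3′UTR of 1416 bases. *LGR5* holds 1 at chr12:71978699-71978705 on the plus strand and *GLUL* holds 1 at chr1:182350070-182350076 on the minus strand. The 6-base form GCTGCT alone was present in *APC* and *TCF7L2*, 1 each, and 6 times in the 15471 bases annotated for *NKD1*, where the first, at chr16:50668115-50668120 on the plus strand, was followed by an A. The 3′UTRs of *CTNNB1*, *AXIN1* and *TBX3* held none of these forms. Counting the 6-base form, 7 of the 10 genes carried a match, compared with 50.5% of all such genes. Matches are shown for the 5 genes that carry one and lay past 1.5-fold from the median in a comparison with NT below, and for *GLUL*. *AXIN1*, which also lay past it in a comparison below, carries none. Sequences are in the reading direction of the transcript, with the paired bases in capitals and flanking sequence of GRCh37 in lower case.
BTRC, position 219: tcagcacaactgactgcttcagTGCTGCTa
BTRC, position 2162: ttttaccagcctttctgtcataTGCTGCTa
AXIN2, position 416: ccccatccccagtttatggataTGCTGCTt
AXIN2, position 639: cgttttgtttttttttttcctaTGCTGCTc
LGR5, position 188: tgagagtgaatataagtctaaaTGCTGCTt
GLUL, position 3467: gccatgtaaaaagccagatctgTGCTGCTg
NKD1, position 426: cgaaatctccgagaagataaacaGCTGCTa
APC, position 773: attctggtatttgaggtgagatgGCTGCTc

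In coding sequence the 7 bases occurred in *APC* (2 times), *CTNNB1*, *BTRC* and *LGR5* (1 each), that is, in 4 of the 10 genes compared with 35.4% of 10912 genes. These are matches of letters in the reference. Whether Ago2 contacts them was not measured, because the table gives 1 value per gene and no position within it.

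**Figure D1:**
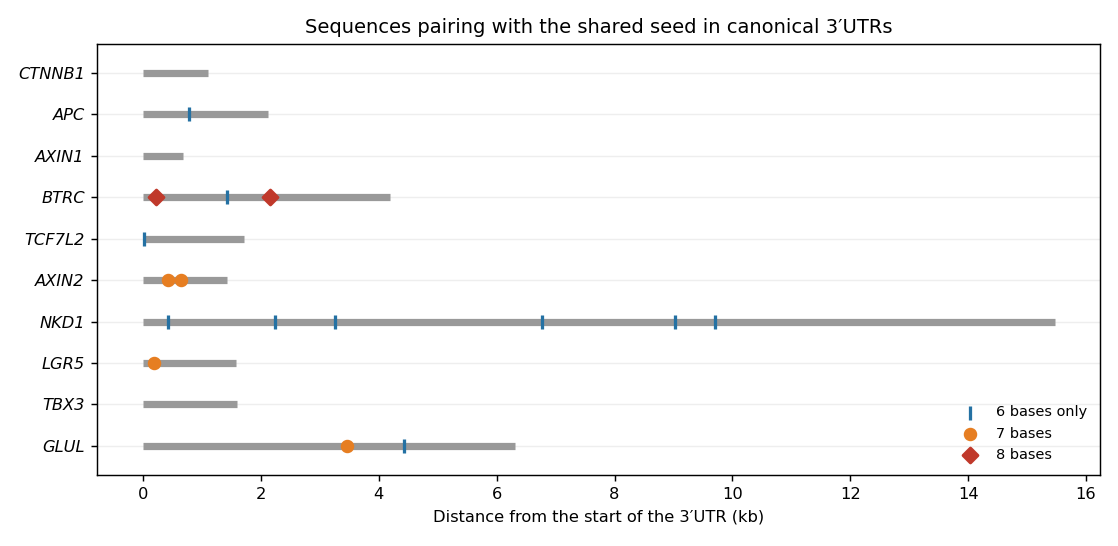
Canonical 3′UTRs of the 10 genes drawn to scale from their start (distance in kb), with 8-base sites as diamonds, 7-base sites as circles and 6-base matches as ticks. *BTRC* alone of the 10 carries the 8-base form, 2 times, and the 6 matches of *NKD1* are all of 6 bases.

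Values in the table are RPKM, reads per kilobase of transcript scaled to the mapped reads of the library, so that levels can be compared between genes. From the steps between low RPKM values, whole read numbers could be inferred for all 10 genes. They could not be inferred for some other symbols. These include highly abundant ones such as *AFP* and lower ones such as *HNF4A*, at 40.0 RPKM in total RNA of NT, and *PECAM1*. Over the symbols with inferred reads, these summed to between 17544102 and 22112336 in the total RNA libraries and between 1985180 and 3942019 in the Ago2-IP libraries, the lowest being Ago2-IP of *miR-497*. The smallest number behind any value of the 10 genes was 61 reads (*AXIN1*, Ago2-IP, *miR-497*). *NKD1*, at 99.4 RPKM from 6359 reads in total RNA of NT, had fewer reads per RPKM than *CTNNB1*, at 180 from 15201. The transcript length behind its RPKM was thus shorter than that of *CTNNB1*. Later matches in the 15471 bases annotated as the 3′UTR of *NKD1* may lie outside the measured length. Liver genes were abundant in total RNA of NT cells (*AFP* at 4884 RPKM, *APOB* at 1199 and *ALB* at 61.4), although *TTR* was at 1.52, and the blood genes *PTPRC* and *HBB* and the fibroblast gene *COL1A2* were at 0 in all 6 libraries. Of the other markers examined, *CD68* was at 10.5, *PDGFRB* at 2.09 and *PECAM1* at 0.263 RPKM in the same library.

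*CTNNB1* was the most abundant of the 10 transcripts in total RNA. It was at 180 RPKM in NT, 176 after *miR-195* and 185 after *miR-497*. The next in NT were the feedback inhibitor *NKD1* at 99.4, the receptor *LGR5* at 65.9, *GLUL* at 54.4 and *AXIN2* at 46.4 RPKM. *TBX3* was at 22.5 RPKM. The remaining members of the signalling machinery were lower, with *TCF7L2* at 9.91, *BTRC* at 9.23, *AXIN1* at 7.74 and *APC* at 6.43 RPKM. Thus the 5 targets among the 10 genes lay above *BTRC* and the scaffolds *AXIN1* and *APC* in level. Other known targets did not all do so, since *JUN* at 6.11, *CD44* at 6.47 and *SLC1A2* at 8.41 RPKM lay below *BTRC*, and the liver-zone genes *CYP2E1*, *LECT2* and *CYP1A2* were at 0.0728, 0.0375 and 0.0129 RPKM, 1 to 3 reads each. These were named after their values were seen. Neighbours in this order had counting intervals that did not overlap, except for *TCF7L2* and *BTRC*. The order kept its first 6 places in all 3 total RNA libraries, while *BTRC* went from place 8 in NT to place 10 after *miR-195* and place 9 after *miR-497*. Ago2-IP gave another order, led by *LGR5* at 29.6 RPKM, *NKD1* at 27.1 and *AXIN2* at 23.8 in NT, and *CTNNB1* at 22.1 came after them, its interval overlapping that of *AXIN2*.

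**Figure D2:**
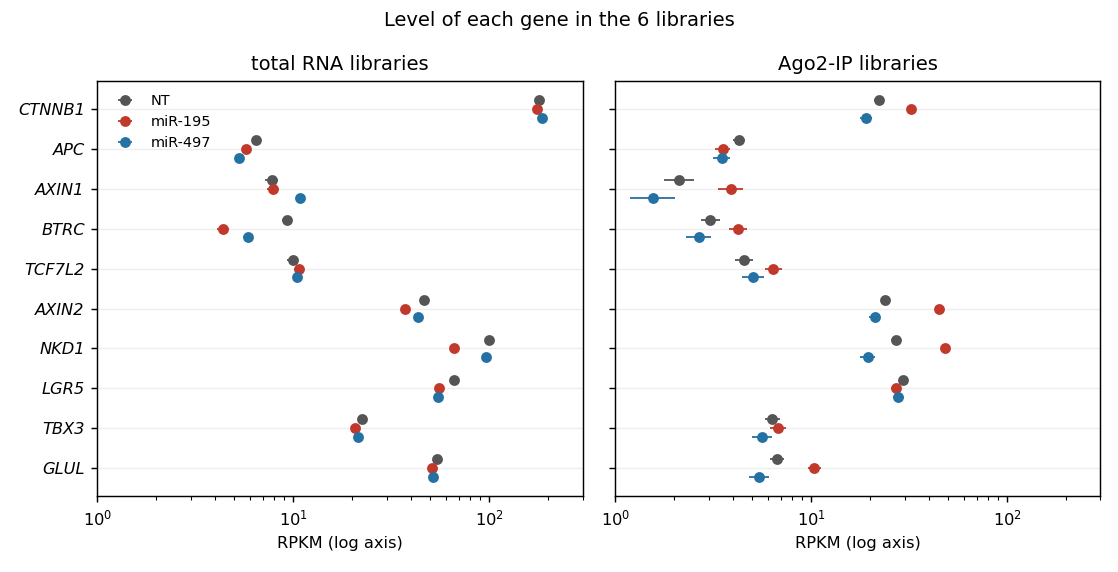
RPKM (log axis) of the 10 genes in the 3 total RNA and the 3 Ago2-IP libraries, 1 point per library, with 95% counting intervals. In total RNA the points of *CTNNB1* coincide near 180 RPKM, while those of *BTRC* with either mimic, 4.37 and 5.90, lie apart from 9.23 in NT.

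To ask whether a mimic shifted a transcript, its log2 difference from NT was taken relative to the median of all genes with values above 0 in the libraries compared. That median was 0.02 for *miR-195* and 0.09 for *miR-497* in total RNA, 0.48 and -0.23 in Ago2-IP, and 0.47 and -0.28 for the fold enrichment score explained below. Values below are relative to it unless stated, and a gene is counted as higher or lower when it lay past 1.5-fold from the median. The comparisons of the 2 mimics share the NT libraries, so they are not independent of each other.

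In total RNA, *BTRC* was the transcript of the 10 that lay lowest with both mimics. It was at 9.23 RPKM (1398 reads) in NT, 4.37 (785 reads) after *miR-195* and 5.90 (1118 reads) after *miR-497*. The 3 intervals did not overlap, with NT highest and *miR-195* lowest. In a pool of cells, less of the transcript per cell and fewer cells that hold it cannot be told apart. The log2 difference was -1.10 (-1.22 to -0.97) after *miR-195* and -0.74 (-0.85 to -0.62) after *miR-497*, which placed *BTRC* at percentile 2.81 and 4.46 of all genes scored. A direct comparison of the 2 mimic libraries, which leaves out NT, gave -0.36 (-0.49 to -0.23) for *miR-195* against *miR-497*.

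*NKD1*, whose product binds Dishevelled, was lower after *miR-195* and not past 1.5-fold after *miR-497*. It was at 99.4 RPKM in NT, 65.7 after *miR-195* and 95.8 after *miR-497*. Only the library of *miR-195* thus stood apart by more than a small step, at -0.61 (-0.67 to -0.56) against -0.14 (-0.19 to -0.10) after *miR-497*. Without NT, the difference between the mimics was -0.47 (-0.52 to -0.42).

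In all, 2 of the 10 genes were lower after *miR-195* and none higher, and 1 was lower after *miR-497* and none higher. Among all genes 8.93% were lower and 12.9% higher after *miR-195*, and 7.36% were lower and 14.2% higher after *miR-497*. Of genes with at least 1 RPKM in the libraries compared, as all 10 are, 5.91% and 3.75% were lower. The other values were small. After *miR-195*, 8 of the 10 genes lay below the median of all genes, and after *miR-497* 9 did, and the median of the 10 was -0.16 with either mimic.

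Among the other genes of the destruction complex, *APC* went from 6.43 RPKM in NT to 5.76 after *miR-195* and 5.25 after *miR-497*, or -0.18 (-0.27 to -0.08) and -0.38 (-0.48 to -0.29). *AXIN1* was at 7.74, 7.90 and 10.9 RPKM, so that the library of *miR-497* was the high one, at 0.40 (0.26 to 0.53) against 0.01 (-0.13 to 0.16) after *miR-195*. It was the single gene of the 10 whose total RNA interval lay above the median of all genes in any of the comparisons with NT. *AXIN2*, the inducible paralogue of *AXIN1*, was at 46.4 RPKM in NT, 37.2 after *miR-195* and 43.0 after *miR-497*. Both mimic libraries were lower than NT, by -0.33 (-0.39 to -0.27) and -0.20 (-0.25 to -0.14).

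The transcripts of β-catenin and of its DNA-binding partner TCF7L2 hardly differed between the total RNA libraries. *CTNNB1*, at 15201 to 19576 reads per library, was at -0.05 (-0.08 to -0.01) after *miR-195* and -0.05 (-0.08 to -0.02) after *miR-497*, and without subtraction of the median the latter was 0.04. *TCF7L2* was at 9.91, 10.7 and 10.5 RPKM, or 0.09 (-0.03 to 0.20) and -0.01 (-0.13 to 0.10). Both intervals of *TCF7L2* included the median of all genes, and those of *CTNNB1* lay just below it.

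Of the liver targets, *LGR5* was at 65.9 RPKM in NT, 55.6 after *miR-195* and 54.9 after *miR-497*. The 2 mimic libraries overlapped in their intervals and lay below NT, at -0.26 (-0.32 to -0.20) and -0.35 (-0.41 to -0.29). *GLUL* was at 54.4, 50.9 and 51.9 RPKM, or -0.11 (-0.16 to -0.07) and -0.16 (-0.21 to -0.11). *TBX3* was at 22.5, 20.6 and 21.4 RPKM, or -0.14 (-0.22 to -0.07) and -0.16 (-0.24 to -0.09). These 3 targets, which include 2 genes with a 7-base site and 1 with none, therefore differed from NT by less than 1.5-fold with either mimic.

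**Figure D3:**
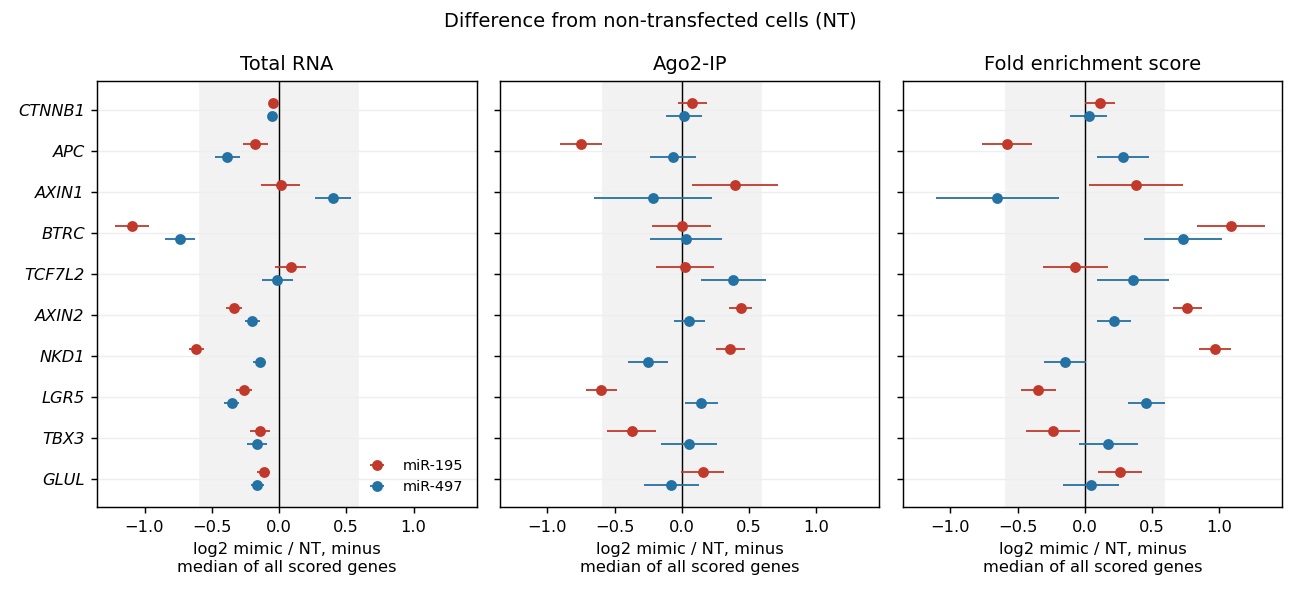
Log2 difference of each mimic from NT, relative to the median of all scored genes (vertical line), in total RNA, in Ago2-IP and for the fold enrichment score, with 95% counting intervals and the range within 1.5-fold shaded. *BTRC* lies left of the shaded range in total RNA, on the line in Ago2-IP and right of the range in the score with both mimics, whereas *NKD1* and *AXIN2* leave the range in the score after *miR-195* only.

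In the Ago2-IP fraction *BTRC* differed little from what all genes did. It was at 3.06 RPKM (315 reads) in NT, 4.25 (354 reads) after *miR-195* and 2.67 (174 reads) after *miR-497*. Relative to the median these were -0.0015 (-0.22 to 0.22) and 0.03 (-0.24 to 0.30), and without subtraction of the median they were 0.47 and -0.20. Thus the order of the 3 libraries for *BTRC* was that of the median gene.

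*APC* and *LGR5* were the 2 genes of the 10 counted as lower in Ago2-IP after *miR-195*, none was higher, and none was counted after *miR-497*. Among all genes 17.4% were lower and 21.4% higher after *miR-195*, and 10.3% were lower and 12.3% higher after *miR-497*, so that 2 of 10 is near the share of all genes. Of genes with at least 1 RPKM in the libraries compared, 13.8% were lower and 16.4% higher after *miR-195*, relative to their own median. After *miR-497*, 5.02% of such genes were lower and 4.56% higher. *APC* was at 4.28 RPKM in NT, 3.54 after *miR-195* and 3.50 after *miR-497*. The NT library was the high one, and relative to the median the differences were -0.75 (-0.91 to -0.59) and -0.06 (-0.23 to 0.11). *LGR5* was at 29.6, 27.1 and 27.9 RPKM, so its level varied little, and its value of -0.60 (-0.72 to -0.49) after *miR-195* consists largely of the median of 0.48 subtracted for that library. After *miR-497* it was at 0.14 (0.02 to 0.26). Without subtraction of the median neither gene was past 1.5-fold after *miR-195* (-0.27 for *APC* and -0.13 for *LGR5*) or with a pseudocount of 0.1 or 1, and *LGR5* was also inside it, at -0.58, when only genes with at least 1 RPKM set the median.

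The feedback genes and *AXIN1* lay on the other side after *miR-195* without passing 1.5-fold. *AXIN2* was at 23.8 RPKM in Ago2-IP of NT, 44.8 after *miR-195* and 21.1 after *miR-497*. The library of *miR-195* was the high one, at 0.44 (0.35 to 0.52) against 0.05 (-0.06 to 0.17). *NKD1* was at 27.1, 48.3 and 19.4 RPKM, highest after *miR-195* and lowest after *miR-497*, or 0.36 (0.25 to 0.47) and -0.25 (-0.40 to -0.10). *AXIN1* was at 2.13, 3.89 and 1.56 RPKM, in the same order, or 0.40 (0.08 to 0.72) and -0.22 (-0.65 to 0.22), from 131, 194 and 61 reads. Compared directly, *miR-195* lay above *miR-497* by 0.64 (0.50 to 0.78) for *NKD1*, by 0.64 (0.23 to 1.06) for *AXIN1* and by 0.41 (0.30 to 0.52) for *AXIN2*, and below it by -0.71 (-0.84 to -0.58) for *LGR5* and -0.65 (-0.84 to -0.47) for *APC*. The median subtracted here was 0.67, and without it *LGR5* was at -0.04 and *APC* at 0.02, while *NKD1*, *AXIN1* and *AXIN2* were at 1.31, 1.32 and 1.08.

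*CTNNB1*, *GLUL*, *TBX3* and *TCF7L2* completed the Ago2-IP values. *CTNNB1* was at 22.1, 32.4 and 19.1 RPKM, or 0.08 (-0.03 to 0.18) and 0.02 (-0.12 to 0.15) relative to the median. *GLUL* was at 6.72, 10.4 and 5.44 RPKM, or 0.15 (-0.01 to 0.31) and -0.08 (-0.28 to 0.13). For both, the 3 libraries followed the median gene within counting error. *TBX3* was at 6.34, 6.80 and 5.61 RPKM, or -0.37 (-0.56 to -0.19) and 0.05 (-0.16 to 0.26), the first of which was 0.10 without subtraction of the median. *TCF7L2* was at 4.55, 6.42 and 5.06 RPKM, or 0.02 (-0.19 to 0.23) and 0.38 (0.14 to 0.62).

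To relate both fractions, the study defined the abundant-Ago2 fraction as Ago2-IP RPKM divided by total RNA RPKM of the same condition. The methods do not say which libraries underwent poly-A selection, so whether a ratio also reflects a difference in selection between the fractions was not tested. In NT this ratio had a median of 0.326 over 14101 genes. *BTRC* was at that median, at 0.331 (0.293 to 0.374). *APC* had the highest ratio of the 10, 0.666 (0.613 to 0.723), followed by *AXIN2* at 0.514 (0.486 to 0.543). *CTNNB1* at 0.123 (0.116 to 0.130) and *GLUL* at 0.124 (0.113 to 0.135) had the lowest, at percentiles 11.1 and 11.2 of all genes. The most abundant of the 10 transcripts thus had, beside *GLUL* with an overlapping interval, the lowest Ago2-IP signal per total RNA of the 10, and this held with either mimic, at 0.184 after *miR-195* and 0.103 after *miR-497*.

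After *miR-195* the median ratio of all genes was 0.469. *AXIN2* reached 1.20 (1.15 to 1.26), *BTRC* 0.972 (0.857 to 1.10) and *NKD1* 0.734 (0.695 to 0.776), that is, percentiles 85.8, 81.0 and 72.8 of all genes. These were the 3 highest of the 10. After *miR-497* the median was 0.260, and the highest of the 10 were *APC* at 0.666 (0.599 to 0.741), *LGR5* at 0.507 (0.472 to 0.546) and *AXIN2* at 0.491 (0.459 to 0.526), ahead of *TCF7L2* at 0.483 and *BTRC* at 0.452 (0.386 to 0.531). The lowest ratios with either mimic were again those of *CTNNB1* and *GLUL*.

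**Figure D4:**
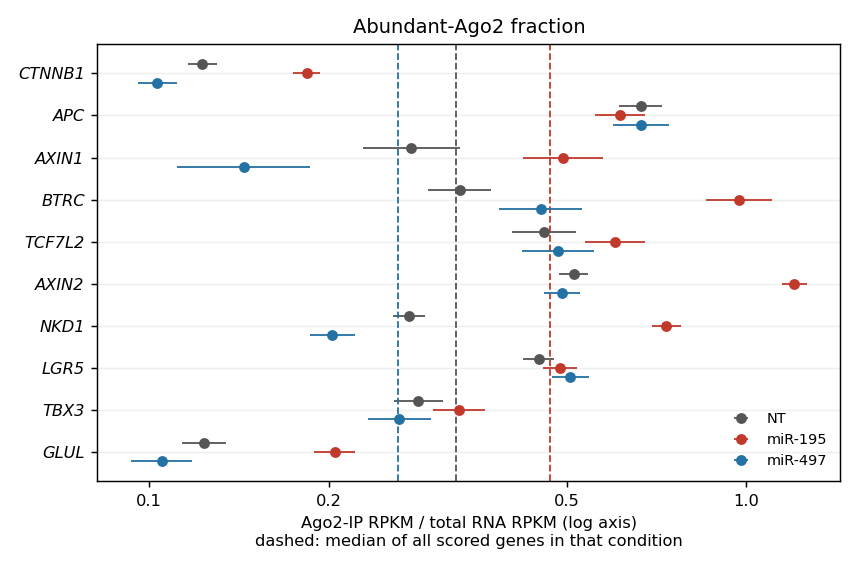
Ratio of Ago2-IP to total RNA RPKM (log axis) of the 10 genes in NT and with either mimic, with 95% counting intervals, and the median of all genes in each condition as a dashed line of the same colour. *BTRC* sits on the line in NT (0.331) and right of the lines of both mimics (0.972 and 0.452), and *CTNNB1* and *GLUL* lie left of all 3 lines.

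The fold enrichment score, the ratio with a mimic divided by that in NT, is the measure by which the study ranked possible direct targets. The study did not use the score alone, but also required a target sequence in the 3′UTR and lower expression on arrays than with a control RNA. Chosen genes, *BTRC* among them, were then followed by Western blot and reporter assay. Since the score divides by total RNA, a transcript that is lower in total RNA and level in Ago2-IP scores higher. The median score of all genes was 1.38 after *miR-195* and 0.824 after *miR-497*. *BTRC* had the highest score of the 10 with either mimic, 2.93 (2.46 to 3.50) after *miR-195* and 1.37 (1.12 to 1.67) after *miR-497*. Relative to the median these were 1.09 (0.84 to 1.34) and 0.73 (0.44 to 1.02) on the log2 scale, at percentiles 92.6 and 91.3. *BTRC* was the gene of the 10 counted as higher with both.

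After *miR-195*, *NKD1* scored 2.70 (2.48 to 2.93) and *AXIN2* 2.34 (2.18 to 2.52), so that 3 of the 10 genes were counted as higher and none as lower, compared with 18.6% and 16.9% of all genes. Of genes with at least 1 RPKM in the libraries compared, 14.4% were higher and 11% lower, relative to their own median. *APC*, at 0.924 (0.814 to 1.05), was just inside 1.5-fold below the median, at -0.58, and past it, at -0.59, when genes of at least 1 RPKM set the median. Both *BTRC* and *AXIN2* hold 2 sites of at least 7 bases. *NKD1* holds none of 7 bases, and *LGR5* and *GLUL*, with 1 site each, scored 1.09 (0.994 to 1.19) and 1.65 (1.47 to 1.86), the former below and the latter above the median of all genes. *LGR5* was at -0.35 relative to the median and at 0.12 without its subtraction.

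After *miR-497*, 1 gene was higher, *BTRC*, and 1 was lower, *AXIN1* at 0.524 (0.381 to 0.720), compared with 12.6% and 20.6% of all genes. Of genes with at least 1 RPKM in the libraries compared, 6.29% were higher and 14.9% lower, relative to their own median. *AXIN1* was the gene with the fewest reads. *AXIN2* scored 0.956 (0.876 to 1.04) and *NKD1* 0.744 (0.668 to 0.829), at 0.22 (0.09 to 0.34) and -0.15 (-0.30 to 0.01) relative to the median. The call of *BTRC* was lost without subtraction of the median (0.45) and with a pseudocount of 0.1 (0.50), and that of *AXIN1* with a pseudocount of 1 (-0.56).

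To see which transcripts behaved like *BTRC*, genes with at least 1 RPKM in all 6 libraries (8582) were ordered by the distance between their profile over the 6 libraries and that of *BTRC*, each library being centred on its median and each gene on its mean. The 5 nearest were *C9orf91* (now *TMEM268*) at 0.16, *CHUK* at 0.20, *AP1S3* at 0.22, *RPRD1B* at 0.33 and *N4BP1* at 0.35, where the median distance of all genes was 1.54. *CHUK* encodes the kinase IKKα. In total RNA *CHUK* was at 41.4 RPKM in NT, 20.1 after *miR-195* and 27.3 after *miR-497*, or -1.06 and -0.69, which are close to the values of *BTRC*. All 5 hold the 7-base site in the 3′UTR of at least 1 protein-coding transcript, and 1, *N4BP1*, holds the 8-base form. Counted in the same way among 8193 genes of this expression range with an annotated 3′UTR, 30.2% hold the 7-base site and 6.35% the 8-base form. The 5 genes were picked by their values in these same libraries, and whether their sites relate to those values was not tested. Of the other 9 genes of the pathway, *AXIN2* lay nearest to *BTRC*, at 0.78 (place 445), and *CTNNB1* farthest, at 2.55.

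The ubiquitin ligase to which BTRC belongs was examined through other genes chosen by name. Of 6 genes for its core and partners (*SKP1*, *CUL1*, *RBX1*, *NEDD8*, the exchange factor *CAND1* and the *BTRC* paralogue *FBXW11*), none was past 1.5-fold with either mimic in total RNA, Ago2-IP or the score. Their median in total RNA was -0.06 after *miR-195* and -0.15 after *miR-497*.

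The pathway was then examined beyond the 10 genes with 7 lists of 103 further genes, all found in the table, of which 69 had a value above 0 in all 6 libraries and 50 had at least 1 RPKM in each. In total RNA after *miR-195*, 13 of 82 scored genes were higher and 13 lower, with a median of -0.06, and after *miR-497*, 11 of 84 were higher and 8 lower, with a median of 0.05. These shares can be read against the 12.9% and 8.93%, and the 14.2% and 7.36%, of all genes. Of the 21 ligands and secretion factors 4 were above 0 in all libraries, whereas 10 of the 18 receptors and R-spondins, 11 of the 15 inhibitors, 13 of the 14 cytoplasmic transducers, 15 of the 17 nuclear factors and 10 of the 12 further targets were. Among the transducers, 1 of 14 was higher and 2 were lower after *miR-195*, and 1 was higher and none lower after *miR-497*. *AMER1*, which recruits APC to the membrane and acts with the destruction complex, was at -1.31 after *miR-195* and -0.58 after *miR-497*, the latter just inside 1.5-fold. It was named after its values were seen, and at least 1 annotated 3′UTR of it holds the 8-base form. It was at 4.50 RPKM in NT, 1.83 after *miR-195* and 3.21 after *miR-497*.

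Of the listed genes with at least 1 RPKM in all libraries, *BAMBI*, a pseudoreceptor of the TGF-β family and a target of the pathway, was lower with both mimics in total RNA, at -1.05 (-1.16 to -0.95) and -0.66 (-0.75 to -0.56). Unlike *BTRC*, it was also lower in Ago2-IP, at -1.36 and -1.27, and its 3′UTR holds no 7-base site. *BCL9L*, a nuclear coactivator of β-catenin, was higher with both, at 0.59 (0.48 to 0.70) and 0.75 (0.65 to 0.86), although at least 1 annotated 3′UTR of it holds the 8-base form. No other gene of the 50 passed 1.5-fold in one direction with both mimics.

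The highest scores after *miR-195* among the 54 listed genes with at least 10 reads in each library compared were those of *SP5*, a transcription factor and target of the pathway, at 9.14 (7.72 to 10.8), *CTNNBIP1*, an inhibitor that binds β-catenin, at 6.93 (5.66 to 8.50), and *BCL9*, a coactivator, at 4.94 (3.82 to 6.38). All 3 scored above *BTRC*, which was at 1.09 relative to the median. So did *CCND1* at 1.54, *DVL1* at 1.42, *PPP2R1A* at 1.38 and *AMER1* at 1.22, which are named here after their values were seen. At least 1 annotated 3′UTR of *CCND1* holds the 8-base form, and *CCND1* was at 0.09 in total RNA after *miR-195* and -0.14 after *miR-497*. *SP5* was lower in total RNA, at -0.77, and higher in Ago2-IP, at 1.97, whereas *CTNNBIP1* was at -0.18 in total RNA and its score came from Ago2-IP, at 2.15. After *miR-497* the scores of *SP5*, *CTNNBIP1* and *BCL9* were at -0.41, -0.08 and 0.25 relative to the median. There the highest of 52 were *LGR4*, a paralogue of *LGR5*, at 1.45 (1.30 to 1.62), *FZD6* at 1.38 (0.990 to 1.93) and *CTBP2* at 1.38 (0.657 to 2.89), the last from 23 to 33 reads per library. Like *BTRC*, *LGR4* was lower in total RNA after *miR-497*, at -0.86 (-0.92 to -0.80), and level in Ago2-IP, at -0.0041. No annotated 3′UTR of *LGR4* holds the 7-base site. *SP5*, *CTNNBIP1* and *FZD6* hold it in at least 1 annotated 3′UTR, and *BCL9* and *CTBP2* do not. Among the secreted and membrane inhibitors 6 of 11 scored lower with each mimic, beside 1 higher, where 16.9% and 20.6% of all genes were lower. The 6 after *miR-195* were *DKK3*, *DKK4*, *SFRP4*, *SFRP5*, *FRZB* and *KREMEN2*, which had 1 to 15 Ago2-IP reads per library compared. Of the 5 inhibitors with at least 1 RPKM in all libraries, *DKK1*, *KREMEN1*, *NOTUM*, *RNF43* and *ZNRF3*, none scored lower after *miR-195*, and after *miR-497* *NOTUM* at -0.68 and *KREMEN1* at -0.65 did. These inhibitors were named after their values were seen.

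**Figure D5:**
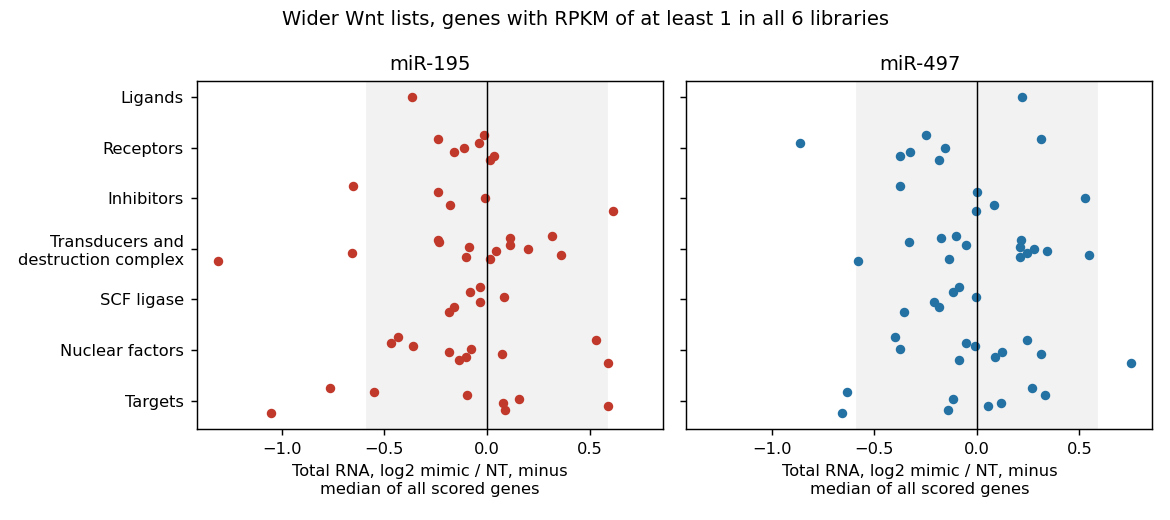
Total RNA difference of each mimic from NT, relative to the median of all scored genes, for the 50 listed genes with at least 1 RPKM in all 6 libraries, 1 point per gene, grouped by role, with the range within 1.5-fold shaded. The 6 genes of the SCF ligase stay within the range with either mimic, and *AMER1* at -1.31 after *miR-195* is the lowest point.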

How the data were processed

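Hep G2 RNA from the Ago2-IP and from whole cells was sequenced as 36-base reads, with or without poly-A selection, which was not assigned to libraries. The authors aligned reads with ELAND in CASAVA 1.7 to hg19 and deposited 1 table of RPKM per gene, 6 columns, 1 library each. Symbols on more than 1 line (28) were averaged. The value of 1 read in each library was derived from the RPKM steps, and whole reads were inferred for 14047 of 15487 symbols (90.7%), a step tested on simulated data. Intervals are 95%, from these reads, and cover counting error only. Ratios and log2 differences used no pseudocount and genes above 0 in the libraries compared. Lists were matched through reference synonyms. Listed genes were named if at least 1 RPKM in all 6 libraries and past 1.5-fold in 1 direction in total RNA with both mimics, or among the 3 highest scores per mimic (10 reads in each library). Sites in 3′UTRs were searched with pysam 0.24.0 in GENCODE 44 protein-coding transcripts lifted to GRCh37, on the transcribed strand. Positions given for the 10 genes are those in the canonical transcript. For other genes, and for shares of all genes, a site in any protein-coding transcript counted. Coding sequence was searched in canonical transcripts. The genes and lists were chosen with earlier results of these data known. Calculations used Python 3.11.15, numpy 2.4.6 and pandas 2.3.3. With 1 library per condition no test was run.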

Additional observations from a re-analysis of the deposited data

Results flagged for a closer look

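For 5 values the mimics lay on opposite sides of the median of all genes, with counting intervals that both exclude it. In Ago2-IP, *LGR5* was at -0.60 after *miR-195* and 0.14 after *miR-497*, a gap of -0.74, and *NKD1* was at 0.36 and -0.25, a gap of 0.61. In the fold enrichment score, *AXIN1* was at 0.38 and -0.65, a gap of 1.03, *APC* at -0.58 and 0.28, a gap of -0.86, and *LGR5* at -0.35 and 0.46, a gap of -0.80 (all log2, relative to the median). Without subtraction of the medians, *LGR5* lay on 1 side with both mimics, at -0.13 and -0.084 in Ago2-IP (a gap of -0.04) and at 0.12 and 0.18 in the score, and the score of *APC* was at -0.11 and 0.0011, whereas *NKD1* (0.83 and -0.48) and *AXIN1* (0.84 and -0.93) stayed on opposite sides. None of these differences was tested, because each rests on 1 library per condition, and both sides of each gap use the same NT libraries. The Ago2-IP library of *miR-497* had 1985180 inferred reads against 3942019 for *miR-195*, summed over the symbols with inferred reads. The RPKM that 1 read gives, relative to total RNA of NT, was 2.32 and 1.82 in these libraries. The mapped reads used for scaling thus differed less than these sums. The part of read numbers in these gaps was not tested.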

How the results depend on the processing

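Without subtraction of the median, the median of the 10 genes became 0.52 and -0.20 in Ago2-IP (*miR-195*, *miR-497*), 0.65 and -0.085 for the score, and -0.070 in total RNA after *miR-497*. With a pseudocount of 0.1 over all symbols, where many lines at 0 set the median, these were 0.39, -0.19, 0.51, -0.027 and -0.070. With a pseudocount of 1, where only genes above 0 in the libraries compared set the median, the Ago2-IP median after *miR-195* was 0.22. The count of genes past the threshold in Ago2-IP after *miR-195* went from 2 to 4 without subtraction (*AXIN1*, *AXIN2*, *NKD1* and *GLUL*, all higher), to 1 with a pseudocount of 1 (*AXIN2*) (*AXIN1*, *AXIN2* and *NKD1*, all higher, made 3 with a pseudocount of 0.1) and to 1 with a minimum of 1 RPKM (*APC*). For the score the count went from 3 to 5 without subtraction after *miR-195*, and from 2 to 1 after *miR-497* without subtraction (*AXIN1*), with a pseudocount of 0.1 (*AXIN1*) and with a pseudocount of 1 (*BTRC*). At 2-fold, 1 gene remained in total RNA and 1 in the score after *miR-195* (*BTRC* in both), and 0 in Ago2-IP after *miR-195*, 0 in total RNA after *miR-497* and 0 in its score. *BTRC* kept its total RNA calls at 1.5-fold under every other alternative run. With lines of a symbol kept apart, 60 of 60 single values moved by less than their counting error, and with a minimum of 1 RPKM 59 of 60 did. The 10 genes stand on 1 line each and are above 1 RPKM, so these settings could act on them only through the median. By contrast, 41 values moved more without subtraction, 38 with a pseudocount of 0.1 and 19 with 1. The pseudocounts of 0.1 and 1 also differ in which genes set the median, so these counts do not show the effect of its size alone. Sites were present in 7 genes as 6 bases and in 1 as 8 bases, against 4 as 7 bases. No paired analysis was possible because each condition has 1 library per fraction, and for the same reason no replicate could be left out. Depth limits most the Ago2-IP values after *miR-497*, where *AXIN1* rests on 61 reads.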
